A study of Vigna subterranea with 10 samples.

Results

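Phosphate starvation marker genes were followed in leaflets of bambara groundnut (Vigna subterranea, genotype S19-3), a legume grown for its seed in Africa, as the growth temperature was lowered. The markers were 10 probe sets, standing for 9 genes or annotated loci, of the 36578 probe sets with values. Of these, 4 were chosen by their probe set ID (a pyridoxal phosphate phosphatase-related gene, purple acid phosphatase 17, called PAP17 below, SPX domain gene 1 and MYB domain protein 62), and 6 were chosen by the array's gene symbol (SPX3, PHT1-3, PHT1-8, PAP14 and both PAP25 probe sets). The choice was made from the expression values of the same 9 arrays described below, so the markers' values and differences are given as a description, with no test. Counts and names of markers past the threshold are printed beside the share or number of all probe sets that passed it. They are not a test of the markers, and nothing is read from them.

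Plants need inorganic phosphate for nucleic acids, membrane lipids and energy metabolism. When it runs short, a well-known set of genes is switched on by the PHR family of MYB-type transcription factors. Proteins with an SPX domain bind inositol pyrophosphates, which report the phosphate status of the cell, and hold the PHR factors back while phosphate is plentiful. The genes switched on include transporters of the PHT1 family, which carry phosphate across the plasma membrane together with protons, phosphatases that free phosphate from organic compounds, enzymes that replace membrane phospholipids by galactolipids and sulfolipids, and some SPX genes themselves. In leaves these genes are widely used as reporters of phosphate status.

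RNA from single, fully expanded leaflets was hybridised to the Affymetrix Soybean GeneChip, an array of short probes designed on another legume. There were 3 arrays at 27 °C (optimal), 3 at 23 °C (sub-optimal) and 3 at 18 °C (very sub-optimal), all from 3 plants that were kept in soil columns under a 12 hour photoperiod and were sampled at 27 °C, then at 23 °C and last at 18 °C. No plant was held at 27 °C throughout. In every comparison temperature therefore went with the order of sampling, plant age, the time spent in the pot and earlier sampling, and these cannot be told apart. The age of the leaflets was not given. No phosphate content of the soil or leaf was among the measurements. A leaflet holds many cell types, and a lower value from fewer cells of a type and one from less RNA per cell cannot be told apart. Each value is on a log2 scale as deposited by the authors, and a difference is that of the group means in log2 units ± the standard error of a linear model (limma) fitted to all 9 arrays and all 36578 probe sets. Because the probes differ between probe sets, levels are compared between temperatures within a probe set and not between probe sets.

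No array stood apart in its overall values. Array medians lay between 7.89 and 8.11, and each array correlated over all probe sets with the mean of its temperature's other arrays at r between 0.80 and 0.83. The median probe set differed by -0.0048, -0.06 and -0.05 between 23 and 27 °C, 18 and 27 °C, and 18 and 23 °C, far less than the differences of the markers described first below. Of 9 probe sets of leaf genes 5 had a mean of 10 or more, against 0 of 5 probe sets of nodule genes and 3 of 21 of seed genes.

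Phosphatases were the markers with the largest differences. The probe set described by the study as pyridoxal phosphate phosphatase-related (soybean gene model Glyma08g20810.1) corresponds to a gene that in Arabidopsis encodes a phosphatase of phosphoethanolamine and phosphocholine, the head groups of membrane phospholipids. Its values were 5.55, 8.30 and 7.93 in the arrays at 27 °C, 14.30, 12.99 and 13.55 at 23 °C, and 14.81, 15.19 and 15.66 at 18 °C. All 3 temperatures were separate, with every array at 18 °C above every array at 23 °C and all of those far above 27 °C. The means were 7.26 ± 1.49, 13.62 ± 0.66 and 15.22 ± 0.43 (SD, n = 3 each). The mean at 23 °C was 6.36 ± 0.60 above that at 27 °C and the mean at 18 °C was 7.96 ± 0.60 above it, so that 79.8% of the whole difference was present at 23 °C. The step from 23 to 18 °C was 1.61 ± 0.60. The replicates at 27 °C covered a wide range, and replicate 1 of that group lay below the other two. The mean at 27 °C was dim, below every array median (7.89 or more).

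PAP17 (soybean gene model Glyma05g33630.1), numbered after Arabidopsis, belongs to the purple acid phosphatases, metal-containing enzymes that release phosphate from organic compounds, and its Arabidopsis counterpart is a classical gene of phosphate starvation. It stood at 6.70, 7.36 and 9.16 at 27 °C, 13.29, 11.96 and 13.45 at 23 °C, and 14.01, 14.40 and 14.71 at 18 °C. It had the shape of the first phosphatase, low at 27 °C, high at 23 °C and somewhat higher at 18 °C. There was no overlap between any of the temperatures, and its mean at 27 °C was also dim, below every array median. The means were 7.74 ± 1.28, 12.90 ± 0.82 and 14.37 ± 0.35 (SD, n = 3 each). The differences were 5.16 ± 0.56 at 23 °C and 6.63 ± 0.56 at 18 °C over 27 °C, with 77.8% of the latter present at 23 °C, and the step from 23 to 18 °C was 1.47 ± 0.56.

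PAP14, another purple acid phosphatase by its array symbol, ran another way. Its values were 12.39, 12.79 and 12.68 at 27 °C, 11.41, 10.38 and 11.06 at 23 °C, and 12.89, 12.97 and 13.10 at 18 °C. The arrays at 23 °C were all below those at 27 °C, and the arrays at 18 °C were all above them, though the gap between 27 and 18 °C was only 0.09. PAP14 was thus lowest at 23 °C, where the first 2 phosphatases lay between their levels at 27 and 18 °C. The mean at 23 °C was -1.67 ± 0.24 relative to 27 °C, that at 18 °C was 0.36 ± 0.24 above 27 °C, and the step from 23 to 18 °C was 2.03 ± 0.24.

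PAP25 had 2 probe sets, which did not follow each other over the 9 arrays (r = -0.28). The first stood at 12.93, 12.55 and 12.70 at 27 °C, 12.19, 10.43 and 12.71 at 23 °C, and 11.75, 12.36 and 12.13 at 18 °C. Its arrays at 18 °C all lay below those at 27 °C, by a difference of the means of -0.64 ± 0.46, and at 23 °C 1 array was far below the other two. The second, of a type whose probes can also bind other transcripts, ranged from 7.51 to 11.77 at 27 °C, from 8.82 to 11.59 at 23 °C and from 9.31 to 12.08 at 18 °C. Those ranges overlapped almost wholly, with differences of 0.32 ± 1.09 and 0.39 ± 1.09 over 27 °C, and a direction for PAP25 could not be given from the pair.

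The SPX genes are the sensors of phosphate status. SPX domain gene 1 is named by the study's description, and its Arabidopsis counterpart both restrains the PHR factors and is itself switched on by phosphate shortage. The study matched no soybean gene model to this probe set, so the family member it reports is uncertain. The probe set had values of 9.99, 9.68 and 10.37 at 27 °C, 11.60, 10.96 and 11.28 at 23 °C, and 13.66, 13.79 and 14.38 at 18 °C. The temperatures did not overlap, and in contrast to the pyridoxal phosphate phosphatase-related gene and PAP17 the larger step was the second one. The means were 10.01 ± 0.35, 11.28 ± 0.32 and 13.94 ± 0.38 (SD, n = 3 each). The mean was 1.27 ± 0.26 above 27 °C at 23 °C and 3.93 ± 0.26 above it at 18 °C, so 32.2% of the difference was present at 23 °C, and the step from 23 to 18 °C was 2.66 ± 0.26. Its replicates spread by a pooled SD of 0.35, like the median of 0.34 among the 4647 probe sets with a mean between 10 and 12.

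SPX3 was dim and its replicates did not repeat. It stood at 4.29, 7.94 and 2.22 at 27 °C, 8.18, 4.47 and 8.51 at 23 °C, and 8.67, 6.88 and 8.47 at 18 °C. The ranges of all 3 temperatures overlapped, and replicate 2 at 27 °C was above 1 array at 23 °C and 1 at 18 °C. The means of 4.81 ± 2.90, 7.05 ± 2.24 and 8.0 ± 0.98 (SD, n = 3 each) followed the order of SPX domain gene 1, with differences from 27 °C of 2.24 ± 1.56 and 3.19 ± 1.56, against a pooled replicate SD of 2.19. Leaving out 1 array took the first of these to between 0.94 (without 27 °C replicate 3) and 3.80 (without 27 °C replicate 2), and the second to between 1.89 and 4.75 (without the same arrays).

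The PHT1 transporters bring phosphate into the cell. PHT1-3 had values of 7.07, 8.19 and 9.13 at 27 °C, 9.44, 9.29 and 9.39 at 23 °C, and 10.14, 10.21 and 9.62 at 18 °C. Each temperature lay wholly above the warmer one, but by gaps of only 0.16 between 27 and 23 °C and 0.18 between 23 and 18 °C. The differences over 27 °C were 1.24 ± 0.49 and 1.86 ± 0.49, with 66.8% of the latter present at 23 °C, and neither passed the threshold in the fit of all 9 arrays. Without 27 °C replicate 1 they were 0.72 and 1.33, with 53.6% of the latter present at 23 °C. Most of the spread was at 27 °C (SD 1.03, against 0.08 at 23 °C and 0.33 at 18 °C, n = 3 each).

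PHT1-8 did not share this order. Its values were 11.65, 10.94 and 10.26 at 27 °C, 11.50, 9.97 and 11.88 at 23 °C, and 8.82, 10.17 and 11.86 at 18 °C. All 3 ranges overlapped, and the arrays at 18 °C alone covered nearly the whole range seen in the study. The differences from 27 °C were 0.17 ± 0.70 and -0.67 ± 0.70, both smaller than the spread between replicates.

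MYB domain protein 62 is a transcription factor that in Arabidopsis is induced by phosphate shortage and also acts on gibberellin responses. The array annotation lists this probe set under MYB184 and MYB84, and the study matched no soybean gene model to it. The family member it reports is therefore uncertain. It stood at 7.44, 7.19 and 7.04 at 27 °C, 7.38, 8.48 and 6.26 at 23 °C, and 11.13, 10.27 and 10.46 at 18 °C. The arrays at 23 °C lay on both sides of those at 27 °C, and all 3 arrays at 18 °C were above every other. The means were 7.22 ± 0.20, 7.38 ± 1.11 and 10.62 ± 0.45 (SD, n = 3 each), a difference of 0.15 ± 0.61 at 23 °C and 3.39 ± 0.61 at 18 °C over 27 °C. Only 4.48% of the difference was present at 23 °C, and the step from 23 to 18 °C was 3.24 ± 0.61. The means at 27 and 23 °C were dim, below every array median.

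**Figure D1:**
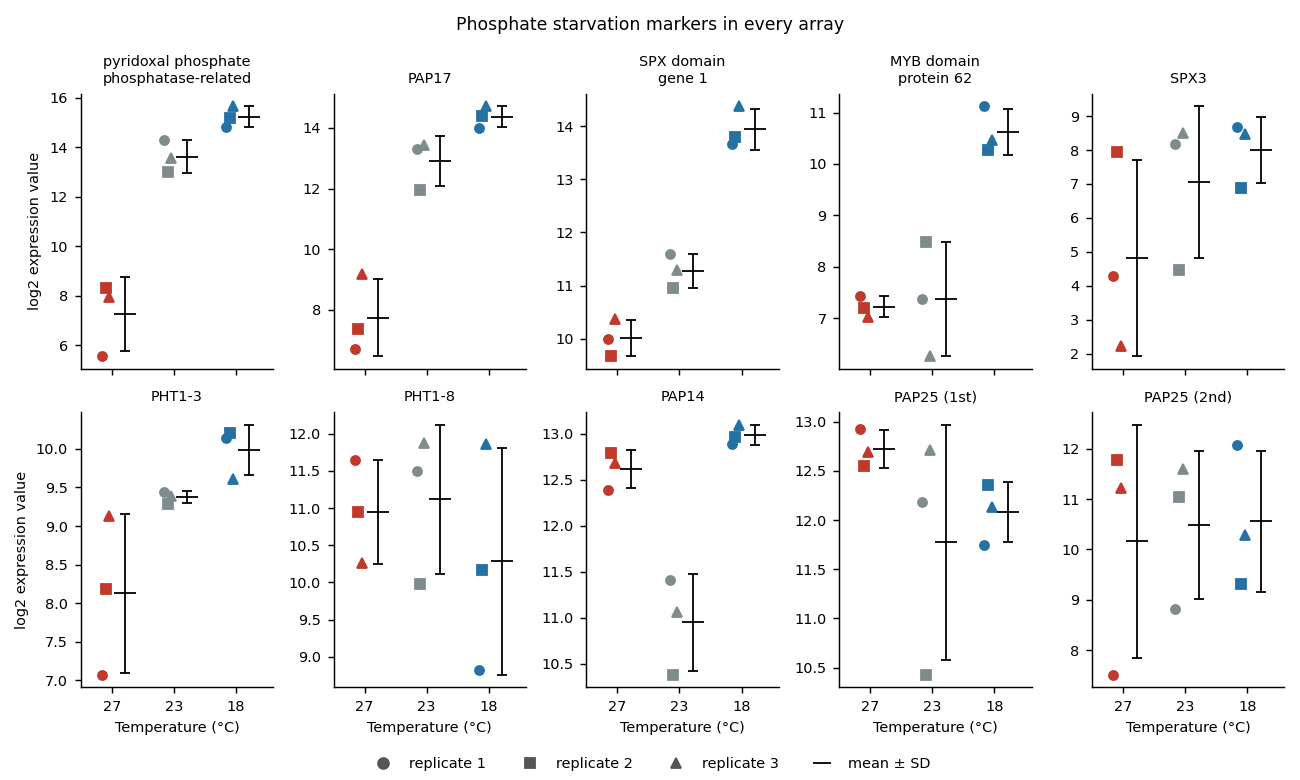
The log2 expression value (vertical axis, its own scale for each probe set) of the 10 marker probe sets in every array at 27, 23 and 18 °C (horizontal axis), with symbols for replicates 1 to 3 and the mean ± SD beside them (n = 3). The pyridoxal phosphate phosphatase-related gene and PAP17 are already high at 23 °C, SPX domain gene 1 climbs mostly between 23 and 18 °C, MYB domain protein 62 is high only at 18 °C, and PAP14 is lowest at 23 °C.

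Set side by side, the markers differed in the temperature at which their values moved. The pyridoxal phosphate phosphatase-related gene, PAP17 and PHT1-3 had most of their difference at 23 °C, SPX domain gene 1 had less than that, and MYB domain protein 62 had nearly none. By their means SPX3 (70.2%) and the second PAP25 probe set (80.9%) also had most of it at 23 °C, but their temperatures overlapped. No error was computed for these shares, and that of PHT1-3 was 53.6% without 27 °C replicate 1. The standard errors above borrow from the spread of all probe sets at the same level, and for the most variable markers they are smaller than the gene's own replicates give. For the pyridoxal phosphate phosphatase-related gene the standard error from its own spread, pooled over the 3 temperatures, was 0.79 in place of 0.60. For PAP17 it was 0.73 in place of 0.56. The SDs differed between temperatures, so a pooled error does not describe each step alike. These phosphatases had pooled SDs of 0.97 and 0.90. The median probe set of the same mean over all 9 arrays had 0.23 (1702 probe sets with a mean between 12 and 14) and 0.34 (means between 10 and 12). That mean joins dim values at 27 °C with high values at the lower temperatures. Their widest SDs were at 27 °C (1.49 and 1.28), where their means were 7.26 and 7.74. The median pooled SD was 1.48 among the 10759 probe sets with a mean between 6 and 8.

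Between 23 and 27 °C, 3 of the 10 marker probe sets passed an adjusted p of 0.05 (Benjamini-Hochberg, limma), against 0.776% of all probe sets. These were both high phosphatases, higher where 0.435% of all probe sets were called higher, and PAP14, lower where 0.342% were called lower. Between 18 and 27 °C, 4 passed, against 2.13% of all probe sets. All 4 (both high phosphatases, SPX domain gene 1 and MYB domain protein 62) were higher, where 1.28% of all probe sets were called higher and 0.845% lower. These 4 were the markers chosen by probe set ID, which the study had picked and described on these arrays. None of the 6 probe sets chosen by symbol passed between 18 and 27 °C. Between 18 and 23 °C, 3 passed, against 0.943% of all probe sets, and these 3 (SPX domain gene 1, MYB domain protein 62 and PAP14) were higher, where 0.550% were called higher and 0.394% lower. The temperatures did not overlap for 5, 7 and 6 of the 10 marker probe sets in these comparisons, where this held for 14.8%, 18.9% and 16.0% of all probe sets. The median differences of the 10 were 0.78, 2.53 and 1.21. As the markers were chosen on these values, the counts repeat the choice. The same holds for each marker named as called, lost or gained here and in the fits below, and none of these is a test. They also rest on the model of the spread. With 1 common prior variance 0, 3 and 0 of the 10 passed in limma, where 1, 38 and 2 of all 36578 did. The methods' t-test called 0 markers in each comparison after adjustment, and 1, 0 and 3 of all probe sets. In fits of the 6 arrays compared, 2, 4 and 2 passed, where 159, 672 and 160 of all probe sets did. PAP14 was then not called at 23 against 27 °C, nor MYB domain protein 62 at 18 against 23 °C. The 7 markers with a mean of 10 or more were also tested with such probe sets alone. There 4, 3 and 2 passed, where 524, 1322 and 798 of all 7017 such probe sets did. SPX domain gene 1 was added at 23 against 27 °C. Leaving out single arrays gave 2 to 3, 3 to 4 and 2 to 3. Of all probe sets, 96 to 248, 387 to 857 and 109 to 265 then passed. PAP14 was no longer called at 23 against 27 °C without 27 °C replicate 2 or 3, and MYB domain protein 62 was no longer called at 18 against 27 °C without 27 °C replicate 2 or 3 or any array at 18 °C, and at 18 against 23 °C without 27 °C replicate 1 or 2, 23 °C replicate 1 or 3, or any array at 18 °C. PHT1-3 passed at 18 against 27 °C without 27 °C replicate 3.

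**Figure D2:**
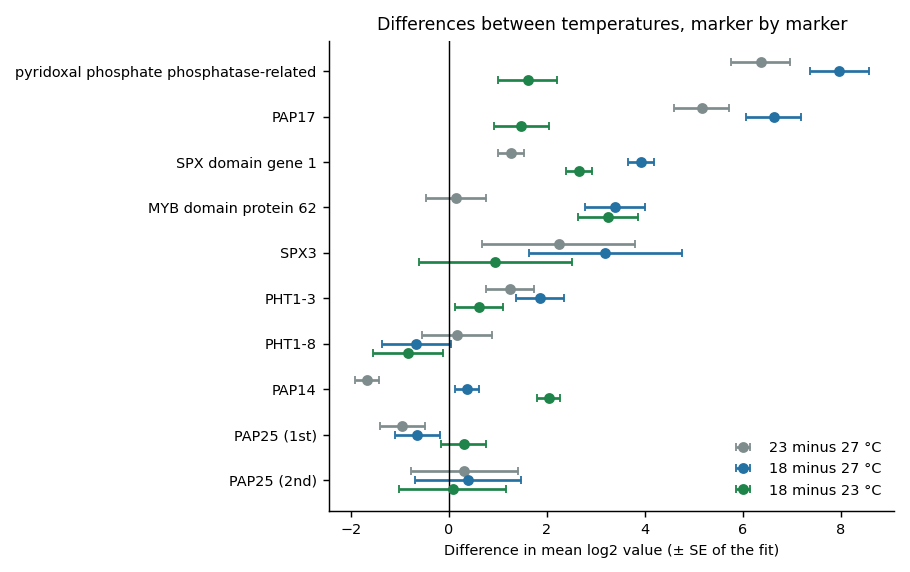
Difference in mean log2 value (horizontal axis, ± SE of the limma fit, 3 arrays per temperature) of each marker probe set (vertical axis) between 23 and 27 °C, 18 and 27 °C, and 18 and 23 °C. The 2 uppermost phosphatases differ by 5.16 to 7.96 from 27 °C, MYB domain protein 62 is near 0 at 23 °C, and PAP14 has opposite signs on either side of 23 °C.

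Within a temperature the markers' deviations ran both together and apart. Over the 9 arrays, the deviations from the temperature means correlated above 0 in 27 of the 45 pairs of marker probe sets and below 0 in 18, with r from -0.90 to 0.73. Replicate 2 at 23 °C had the lowest value of its 3 arrays in 8 of the 10 marker probe sets, where it was lowest in 33.3% of all probe sets, and its median deviation from the 23 °C mean was -0.60. The other 8 arrays were lowest in 1 to 6 of the 10. It was the highest of the 3 in 1 marker probe set, MYB domain protein 62. That array's overall median was 8.08, inside the range of the other arrays. Sign changes on leaving out 1 array were not counted over all probe sets. Of the 30 differences of the markers (10 probe sets in 3 comparisons), 8 changed sign when 1 array was left out. They were those of MYB domain protein 62 and PHT1-8 at 23 against 27 °C, PHT1-8 at 18 against 27 °C, SPX3 and the first PAP25 probe set at 18 against 23 °C, and the second PAP25 probe set in all 3 comparisons. The pyridoxal phosphate phosphatase-related gene and PAP17 correlated at r = 0.98 over the 9 arrays, and at r = 0.66 once the temperature means were taken away. SPX domain gene 1 and MYB domain protein 62 correlated at r = 0.87 over the 9 arrays but at r = -0.39 in the deviations. The 9 arrays come from 3 temperatures and the same 3 plants, so these correlations describe the arrays and carry no test.

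**Figure D3:**
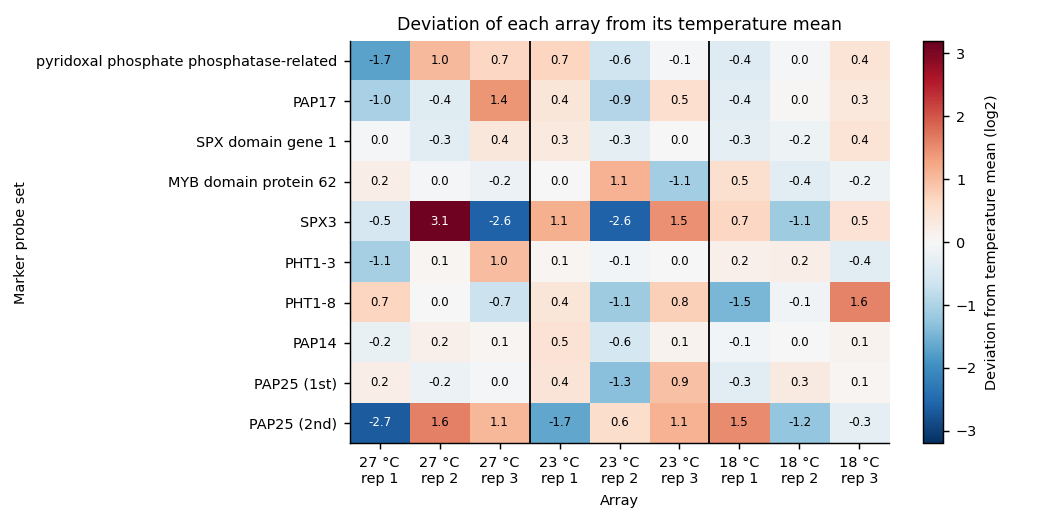
Deviation of each array (columns, 3 replicates at each of 27, 23 and 18 °C) from the mean of its temperature, in log2 units (colour and printed value), for the 10 marker probe sets (rows). Replicate 2 at 23 °C is below its mean in most rows, and SPX3 and the second PAP25 probe set have the widest deviations.

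By shape over the 9 arrays, the named probe sets most like the pyridoxal phosphate phosphatase-related gene, leaving out the markers themselves, among 860 with a name and a mean of at least 10, were a NADH-ubiquinone/plastoquinone complex I protein (r = 0.98), a VEFS-Box polycomb protein (r = 0.98), a protein kinase superfamily protein (r = 0.97), a DNA-directed RNA polymerase family protein (r = 0.97) and transketolase (r = 0.96). Their values moved far less than the marker's, the complex I protein from 11.90 ± 0.15 at 27 °C to 12.81 ± 0.04 at 23 °C and 12.96 ± 0.16 at 18 °C (SD, n = 3 each). Most like SPX domain gene 1 were a biotin/lipoyl attachment domain protein (r = 0.99), aconitase 3 (r = 0.98) and Tom7 of the mitochondrial outer membrane (r = 0.98). A homolog of the carrot EP3-3 chitinase and a zincin-like metalloprotease came next (r = 0.98 each). The chitinase homolog had the widest range of these 5, from 10.06 ± 0.26 to 11.10 ± 0.04 and 12.56 ± 0.35 (SD, n = 3 each). All of these probe sets carry a description from the study, which picked the genes it described on the same arrays.

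Other genes of the phosphate pathway were taken by name from the array symbols and the study's descriptions, which gave 34 further probe sets of 26 genes. They covered 9 probe sets of transcription factors, 2 of transporters, 4 of purple acid phosphatases, 7 of galactolipid synthases, and 12 of PEP carboxylase and its kinase, enzymes that take part in the metabolic bypasses and organic acid release of phosphate-starved plants. A mean of 10 or more was found for 7 of the 34 (20.6%), where it was found for 19.2% of all probe sets, and no probe set was matched for PHO1, PHO2 or ribonuclease genes. Between 23 and 27 °C 1 of the 34 (2.94%) passed an adjusted p of 0.05 in limma and was higher, where 0.776% of all probe sets passed. Between 18 and 27 °C 1 passed (2.94%) and was higher, where 2.13% of all passed, and between 18 and 23 °C 0 passed, where 0.943% of all did. At an unadjusted p under 0.05 the counts were 5, 8 and 4 (14.7%, 23.5% and 11.8%), where 9.42%, 12.9% and 10.5% of all probe sets stood, and the methods' t-test called 0 in each after adjustment. Their median differences were 0.09, 0.05 and 0.08, beside medians of -0.0048, -0.06 and -0.05 over all probe sets, and 18, 18 and 19 of the 34 were on the higher side. The 34 include 3 probe sets that the study had picked and described on these arrays. These are phosphate transporter 3;3, purple acid phosphatase 12 and 1 probe set of DGD1. The adjusted and unadjusted counts of the list are therefore not independent of the study's choice.

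The transporter that passed was phosphate transporter 3;3, a carrier that brings phosphate into mitochondria. Its values were 13.17, 13.12 and 13.14 at 27 °C, 14.33, 13.87 and 14.08 at 23 °C, and 13.99, 14.23 and 14.03 at 18 °C. It was higher in all 6 cooler arrays than in any array at 27 °C and level between 23 and 18 °C. The difference was 0.95 ± 0.14 at 23 °C (adjusted p = 0.0125, limma) and 0.94 ± 0.14 at 18 °C (adjusted p = 0.00599, limma), and -0.01 ± 0.14 between 18 and 23 °C. The call at 23 °C was lost without 27 °C replicate 2 (adjusted p = 0.0662, limma), without 27 °C replicate 3 (adjusted p = 0.0563, limma) or without 23 °C replicate 3 (adjusted p = 0.0594, limma). Both calls were lost where the fit assumed 1 common prior variance, with adjusted p = 0.430 at 23 °C and 0.298 at 18 °C. The study had picked and described this gene on these arrays, so its calls are not independent. Of the 31 probe sets that the study did not describe, 0 passed in any comparison. PT01, the other transporter by name, was dim and differed by 1.27 ± 0.98 at 18 °C (adjusted p = 0.674, limma), and its symbol does not settle which protein it encodes.

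The PHR transcription factors, which switch on phosphate starvation genes in Arabidopsis, lay on both sides of 0. PHR33 stood at 2.95, 3.86 and 3.03 at 27 °C, 5.77, 7.87 and 6.21 at 23 °C, and 6.82, 5.48 and 6.83 at 18 °C. It was separate from 27 °C at both lower temperatures but dim throughout, with 3.10 ± 1.04 at 18 °C (adjusted p = 0.196, limma). PHR13 stood at 7.32, 9.38 and 9.79 at 27 °C, 9.78, 8.39 and 8.78 at 23 °C, and 5.26, 5.18 and 6.0 at 18 °C. Its 3 arrays at 18 °C were below all others, by -3.35 ± 0.81 relative to 27 °C (adjusted p = 0.0625, limma), and without 27 °C replicate 1 the adjusted p was 0.0316. Of the 9 transcription factor probe sets 4 were on the higher side at 18 °C and 5 on the lower.

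The other purple acid phosphatases did not move as PAP17 did. Purple acid phosphatase 12 (PAP12), a secreted enzyme induced by phosphate shortage in Arabidopsis, had 7.48, 7.73 and 7.10 at 27 °C, 3.99, 8.38 and 3.98 at 23 °C, and 3.28, 3.77 and 4.63 at 18 °C. It was dim and lower at 18 °C in every array, by -3.54 ± 1.29 (adjusted p = 0.245, limma), the opposite side from PAP17. Of the 4 probe sets, 3 were on the lower side at 18 °C, and PAP02 was at 0.16 ± 0.46 (adjusted p = 0.939, limma).

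Galactolipid synthases make the lipids that stand in for phospholipids when phosphate is short. DGD1, a digalactolipid synthase, had 9.96, 10.41 and 9.99 at 27 °C, 11.04, 9.95 and 11.03 at 23 °C, and between 10.99 and 11.28 at 18 °C. The arrays at 18 °C were above those at 27 °C, by 0.97 ± 0.31 (adjusted p = 0.179, limma). A second DGD1 probe set differed by -0.05 ± 0.48 at 18 °C (adjusted p = 0.985, limma). Among the 4 probe sets of DGD2, the second such enzyme, the differences at 18 °C ran from -0.38 ± 0.49 (adjusted p = 0.829, limma) to 2.18 ± 0.82 (adjusted p = 0.270, limma), so probe sets of 1 gene lay on both sides of 0. MGD1, which makes the precursor monogalactolipid, was at 0.04 ± 0.22. Among the PEP carboxylase and kinase probe sets, the kinase PPCK2 was highest at 18 °C with 1.40 ± 0.49 (adjusted p = 0.218, limma), and 1 of the PEPC7 probe sets was lowest with -1.21 ± 1.12 (adjusted p = 0.742, limma).

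**Figure D4:**
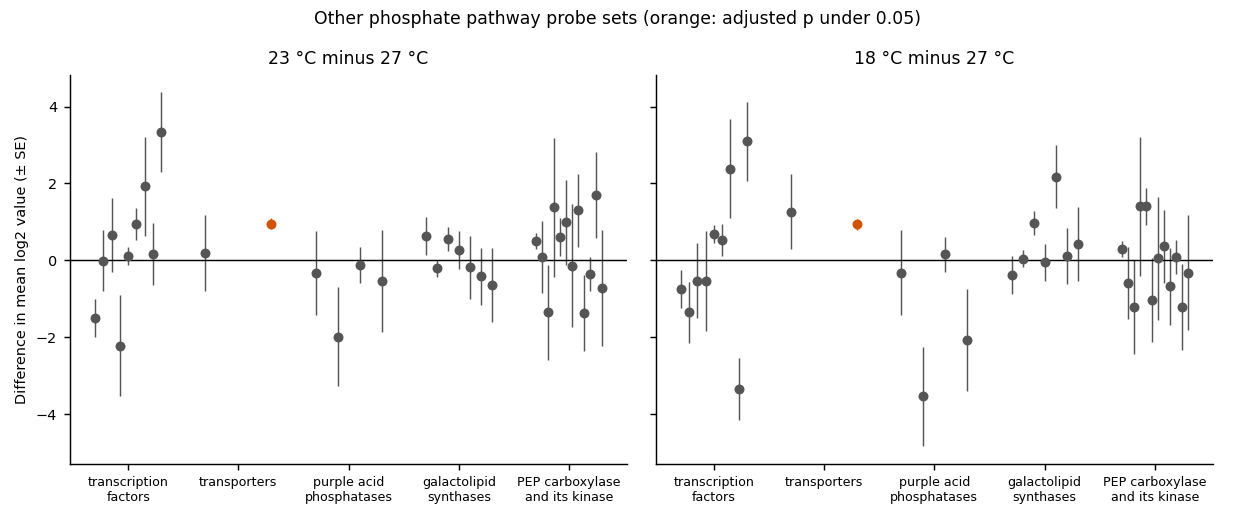
Difference in mean log2 value (vertical axis, ± SE of the limma fit, 3 arrays per temperature) of the 34 other phosphate pathway probe sets, grouped by role (horizontal axis), at 23 °C (left) and 18 °C (right) relative to 27 °C. The single orange point with adjusted p under 0.05 in each panel is phosphate transporter 3;3, at 0.95 and 0.94, and the other points lie on both sides of 0.

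The study also described 2 enzymes of phosphate release and lipid turnover whose names fell outside that list, and it picked them on these arrays. A HAD superfamily acid phosphatase had 9.49, 9.94 and 9.60 at 27 °C, 10.57, 11.10 and 10.76 at 23 °C, and 10.74, 10.88 and 10.84 at 18 °C. It had its whole difference at 23 °C, like phosphate transporter 3;3, with 1.14 ± 0.24 at both lower temperatures (adjusted p = 0.0687 at 23 °C and 0.0363 at 18 °C, limma). The call at 18 °C was lost without any single array at 27 or 18 °C and without 23 °C replicate 3, where the adjusted p lay between 0.0590 and 0.119 in limma. Phosphatidic acid phosphohydrolase 2, which in Arabidopsis helps to free lipid backbones for galactolipids, had 3.57, 3.35 and 4.46 at 27 °C, 7.42, 3.40 and 5.39 at 23 °C, and 8.76, 7.39 and 9.22 at 18 °C. It was dim at 27 °C and highest at 18 °C in all 3 arrays against 27 °C, by 4.66 ± 1.20 (adjusted p = 0.0829, limma).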

How the data were processed

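Total RNA of leaflets was hybridised by the authors to the Soybean GeneChip, and the deposited log2 values came from RMA (version not given in the sources used here), for which the authors had kept only probes that bound bambara groundnut genomic DNA. The threshold for this table is not stated, and a probe set can rest on few probes and can bind several members of a family. The deposited values include 1312 above 16 and 1434 below 0, which RMA alone does not usually give, so the scale holds a further unknown step and differences may not equal true log2 fold changes. The values were used as deposited. In the table, 1 column (genomic DNA) held no values.

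Names came from the array annotation (8365 of the probe sets had 1 symbol, 356 several and 27857 none) and from the study's descriptions (700 probe sets). All 9 arrays were fitted together with limma 3.58.1 in R 4.3.3 (lmFit, eBayes with a mean-dependent, robust prior variance, 6 residual degrees of freedom), with Benjamini-Hochberg adjustment over 36578 probe sets, a threshold of 0.05 and no filter on low values. The fit treats the arrays as independent although 3 plants gave all leaflets. Its p-values set a difference against the spread between these leaflets, drawn towards that of probe sets of like level. The number of arrays limits the precision. The fit was tested on simulated data.

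The members, the lists and the prior variance were chosen with earlier results of these data known. The named pathway probe sets are those called, plus the highest and lowest of each role at 18 °C against 27 °C, and the 5 named probe sets, averaging 10 or more, that correlate best with each of 2 markers over the 9 arrays. PHR13, PHR33, PAP12, PAP02, PT01, PPCK2, PEPC7 and DGD2 came from this rule, and DGD1, MGD1, the HAD acid phosphatase and phosphatidic acid phosphohydrolase 2 were added after their values were seen. Alternatives were a common prior variance, quantile normalisation, arrays centred on their median, the replicate number as a block, a mean of at least 10, only the 6 arrays compared, the methods' t-test, and leaving out each array. The t-test was run here without the study's filter on presence, its stricter corrected p and its fold change limit. Its counts therefore do not repeat the study's procedure. No sequences were printed, as none were used here.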

Additional observations from a re-analysis of the deposited data

How the results depend on the processing

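Of the 30 marker differences 8 changed sign when 1 array was left out. Under quantile normalisation and centring each of the 30 moved by less than 1 pooled replicate SD. Over all probe sets, the calls were 284, 778 and 345 (23 against 27 °C, 18 against 27 °C, 18 against 23 °C). With a common prior variance they were 1, 38 and 2, with the methods' t-test after Benjamini-Hochberg adjustment 1, 0 and 3 (2989, 4133 and 3331 at an unadjusted p of 0.05), and with a mean of at least 10 they were 524, 1322 and 798. In fits of the 6 arrays compared they were 159, 672 and 160. Leaving out 1 array gave 96 to 248, 387 to 857 and 109 to 265, lowest without 27 °C replicate 2 for the first pair of comparisons and without 23 °C replicate 3 for the last. Centring each array on its median moved the split of higher and lower calls from 469 and 309 to 613 and 235 at 18 against 27 °C, and from 201 and 144 to 292 and 99 at 18 against 23 °C.

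Among the 34 pathway probe sets, the calls of 1, 1 and 0 became 0, 0 and 0 with a common prior variance and with the methods' t-test. Leaving out 1 array gave 0 to 1, 1 to 2 and 0 to 0. At 18 against 27 °C, leaving out 1 array moved the PEPC7 probe set named above between -2.30 and 0.10, reversed without 18 °C replicate 1, and PAP02 between -0.23 and 0.48, reversed without 27 °C replicate 2 (-0.08) or 18 °C replicate 2. Neither was called.

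The labels do not tie replicate numbers to plants, so the numbers were not taken as pairs. Deviations of same-numbered arrays correlated between -0.01 and 0.01, and those of differently numbered arrays between -0.03 and 0.02. This check runs over all probe sets, most with a mean under 10, and cannot settle whether a number stands for a plant. With a replicate block the calls were 230, 698 and 282, and 1, 1 and 0 in the pathway list. Of the markers it ended the call of MYB domain protein 62 at 18 against 23 °C. The cause of these changes was not tested.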
